A study of Mus musculus with 122 samples.

Results

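CLL is a chimeric DNA-binding protein that joins the N terminus of CTCF to the zinc fingers and C terminus of CTCFL, so that a single terminus comes from CTCF. Its binding was followed in the FLAG ChIP peak lists titled CLL D (2 replicates) and CLL ID (2 replicates), chosen by title, which are 4 of the 122 samples of the series. The series asked how the termini and the zinc fingers of CTCF and of its germline paralogue CTCFL shape binding, cohesin positioning and chromosome folding in mouse embryonic stem cells. The line is E14Tg2a in which both alleles of Ctcf carry an auxin-inducible degron and eGFP, with Tir1 at the Rosa26 locus, so that auxin (IAA) removes endogenous CTCF. The chimera was expressed from a doxycycline-inducible transgene with FLAG and mRuby2 tags at the Tigre locus, so its level is set by that promoter and not by the Ctcf or Ctcfl promoter. D libraries came from cells given doxycycline at 1 µg/ml for 48 h, in which endogenous CTCF was present. ID libraries came from cells given the same doxycycline together with IAA at 500 µM for 48 h. The transgenic lines were picked as colonies, and how many clones stand behind the 2 replicates is not given in the sources used here, nor are the replicates described as separate cultures. The p-values therefore measure the spread between libraries that may be technical.

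The same FLAG ChIP was used for comparison in lines expressing CTCF, CTCFL and other chimeras, each in D and ID with 2 replicates. CLC carries both termini of CTCF around the CTCFL zinc fingers and so differs from CLL by its C terminus. LLC carries the CTCF terminus at the C-terminal end instead, and LCL has the zinc fingers of CTCF between CTCFL termini. Their doses were as for CLL. Labels of single samples give 48 h for LLC and 24 h for CTCF, CTCFL, CLC and LCL, whereas the general treatment notes and the study's methods give 2 days for ChIP, so the shorter time is uncertain. Libraries at 48 h of CTCF ID and CTCFL ID also exist as mock and RNase-treated pairs (2 replicates each).

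CTCF is an insulator protein that binds DNA through an array of zinc fingers and stops the cohesin complex as it extrudes chromatin loops. CTCFL, also called BORIS, has closely related zinc fingers and different termini, and is normally made in male germ cells. It recognises much the same sequence as CTCF and is known for binding many active promoters.

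Peaks carry a −log10 q, the peak caller's measure of confidence, and a fold enrichment over background. The numbers of reads behind the libraries are unknown, because peak lists hold none, and both the number of peaks and their q values move with depth. The lowest −log10 q listed was 1.3 in CLL and LLC and 2.00 in the lists of CTCF, CTCFL, CLC and LCL. Regions where the merged peaks of both replicates of a group overlapped were taken as its sites. They were assigned to promoters when their midpoint fell no more than 3 kb from an annotated transcription start site, and to repeats when over 50% of the bases up to 50 bp on either side of the summit were masked as repeat in the genome.

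CLL D replicate 1 stood apart from the other CLL libraries. It held 2189 peaks, of which 93.7% lay in repeats and 1.19% had a CTCF motif match within 50 bp of the summit. D replicate 2 held 14593 peaks, with 59.0% in repeats and a motif share of 27.9%. File names place D replicate 1 on sequencing lane 6 and the other 3 CLL libraries on lane 7. Every D value that needs both replicates is limited by the small list, so D replicate 2 is given beside many of the D values.

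CLL had more peaks after removal of endogenous CTCF, in both ID libraries against both D libraries. ID replicates 1 and 2 held 18798 and 27051 peaks. The mean was 8391 ± 8771 in D and 22924.5 ± 5836 in ID (SD, n = 2 each), a difference of 14533.5 peaks with an exact two-sided permutation p of 0.33, the smallest that 2 libraries against 2 can give. The groups did not overlap, but the difference could not pass 0.05 in this design. Within lane 7 the ID mean exceeded D replicate 2 by 8331.5 peaks.

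Most of the additional ID peaks lay outside repeats. Peaks outside repeats numbered 139 and 5988 in D and 9974 and 16540 in ID, while those in repeats numbered 2050 and 8605 in D and 8824 and 10511 in ID. The difference in means was 10193.5 peaks outside repeats and 4340 in repeats (exact p 0.33 for each). Without D replicate 1, the number in repeats differed little between D replicate 2 and ID replicate 1. The motif share was 40.8 and 47.3% in ID, above both D libraries, and among the 2000 peaks with the highest −log10 q it was 1.25 and 73.4% in D and 87.0 and 88.2% in ID. Because 2000 peaks are most of the list of D replicate 1 and a small part of the other lists, the first of these values does not describe strong peaks alone.

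**Figure D1:**
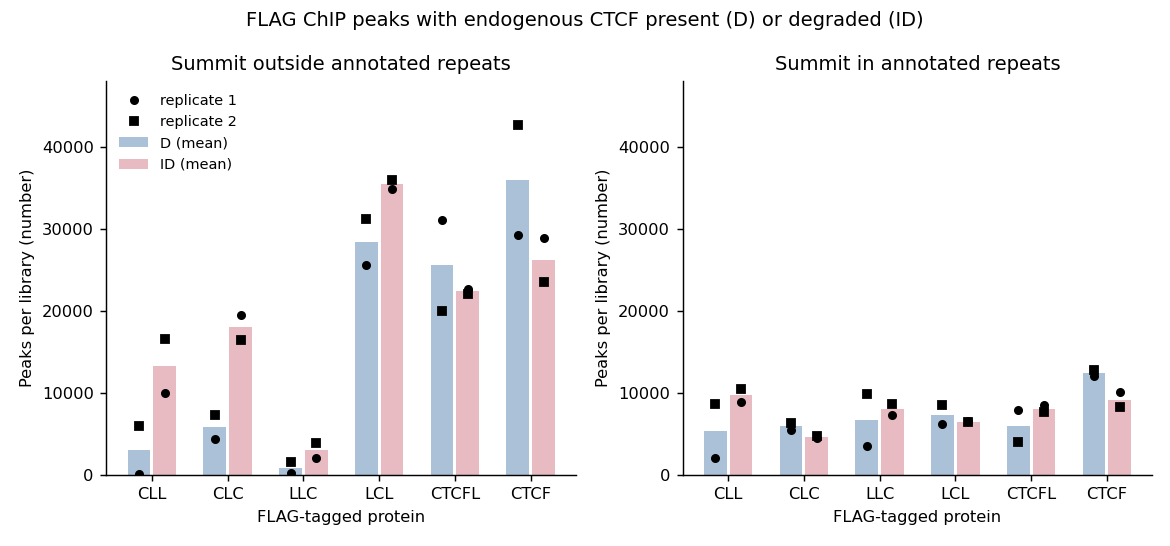
Numbers of FLAG peaks per library (y axis) outside repeats (left) and in repeats (right) for each tagged protein (x axis), with bars for the means of D and ID and a circle and a square for replicates 1 and 2. For CLL, the points outside repeats lie at 139 and 5988 in D and at 9974 and 16540 in ID.

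Removal of endogenous CTCF went with more peaks for CLC as well, and with fewer for CTCF itself. CLC had 9867 and 13583 peaks in D and 23899 and 21220 in ID, a difference of 10834.5 against 14533.5 for CLL. LLC, with the CTCF terminus at the other end, had 3731 and 11450 in D and 9441 and 12519 in ID, so its groups overlapped (difference 3389.5, exact p 0.67). File names place LLC replicate 1 of D and ID on lane 6 and replicate 2 on lane 7, and ID was the higher within each lane. Outside repeats LLC had 209 and 1553 peaks in D and 2092 and 3890 in ID, with groups apart as for CLL (difference 2110, exact p 0.33). The ID minus D difference was −1076 for CTCFL, −12987.5 for CTCF and 6216.5 for LCL. Whether the differences themselves differ between lines was not tested.

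Sites present in both replicates numbered 1908 for CLL D and 15633 for CLL ID. Of the D replicate 1 peaks 87.9% overlapped a D replicate 2 peak, but the reverse share was 13.2%. In ID, 83.9% of replicate 1 peaks overlapped replicate 2 and 58.0% the reverse. The ID sites covered 84.5% of the D sites, and the D sites covered 10.3% of the ID sites. By D replicate 2 alone, 61.4% of the ID sites had a D peak, so the small share rests on D replicate 1. Restricted to peaks of −log10 q 5 or higher, there were 429 D and 10218 ID sites.

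CLL D sites, which the small list of D replicate 1 limits, were mainly repeat DNA shared by other FLAG libraries. Of the 1908 sites 94.0% lay in repeats, 50.9% held an unbroken CA run of at least 12 bases (or its complement) up to 100 bp from the summit, and 1.57% had the motif, against 4.17% at control positions 1000 bp away. D sites overlapped LLC ID sites at 84.2%, CTCFL ID sites at 61.0%, CTCFL mock sites at 72.0%, CTCF ID sites at 24.9% and CTCFL D sites at 33.9%. The peaks of D replicate 2 alone lay in repeats in 59.0%, held the CA run in 34.6% and had the motif in 27.9%. They overlapped LLC ID sites at 38.4%, CTCFL ID sites at 56.6%, CTCFL mock sites at 41.1%, CTCF ID sites at 39.6% and CTCFL D sites at 47.1%. The D sites made up 24.3% of the LLC ID, 4.64% of the CTCFL ID, 19.3% of the CTCFL mock, 1.57% of the CTCF ID and 2.89% of the CTCFL D sites. For the peaks of D replicate 2 alone, these shares were 83.9, 32.5, 83.7, 19.0 and 30.5% in the same order. The D sites in repeats had a peak in a median of 16 of the 28 FLAG libraries of other proteins, 9 of 12 at 48 h and 8 of 16 at 24 h. The median was 17 over all CLL D sites, 18 over all CLL ID sites and 14 over CLL ID sites in repeats, so wide sharing was not particular to repeat D sites. The repeat sites common to both D libraries were thus places that FLAG libraries of unlike proteins shared, and 115 D sites remained outside repeats.

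CLL ID sites lay mostly where CTCF and CTCFL both bind. CTCF ID sites overlapped 65.5% of them and CTCFL D sites 70.1%, and 60.5% were at both. These overlaps took in 33.6% of the 30317 CTCF ID sites and 48.8% of the 22294 CTCFL D sites. The peaks of ID replicate 2 alone took in 51.9 and 72.7% of them. Outside repeats the shares were higher, at 88.7% for CTCF ID and 94.2% for CTCFL D among 9448 CLL ID sites. CLC ID sites overlapped 70.5% of all CLL ID sites and 95.5% of those outside repeats, and 61.1% of the 17876 CLC ID sites overlapped a CLL ID site. By sites in both ID replicates, nearly every CLL ID site outside repeats was thus also a CLC ID site, while many CLC ID sites had no CLL ID site. The peaks of ID replicate 2 alone overlapped 88.6% of the CLC ID sites. Of its peaks outside repeats, 79.2% lay at a CLC ID site, so the contrast depends on requiring ID replicate 1. LLC ID sites overlapped 32.04% of CLL ID sites, and 16.6% outside repeats. Asking for an overlap of at least 66% of both regions gave 40.2% for CTCF ID, 28.5% for CTCFL D and 19.3% for CLC ID. The 48 h mock sites gave 68.4% for CTCF and 36.9% for CTCFL, and the 2189 top-ranked peaks of every library gave 32.7, 58.2 and 73.2% for CTCF ID, CTCFL D and CLC ID.

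Sites at CTCF alone and at CTCFL alone differed in where they lay. The 9451 CLL ID sites at both parents had the motif in 77.5% and lay at promoters in 27.0%. The 1512 at CTCFL D alone lay at promoters in 33.2%, and the 839 of them outside repeats in 50.2%, with 58.9% GC around the summit. Sites at CTCF ID alone numbered 782, with 14.6% at promoters, and 18.9% of the 323 outside repeats. D replicate 2 had a peak at 64.0% of the CTCFL-alone sites outside repeats and at 7.12% of these 323. A CTCFL ID site lay at 89.8% of the 323, so they lack a CTCFL site in D but mostly not in ID. In the same way, a CTCF D site lay at 41.9% of the 1512 CTCFL-alone sites and at 47.7% of the 839. These sites lack a CTCF site in ID, but many do not in D.

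Of the ID sites 3888 (24.9%) were at neither parent, and 94.2% of these lay in repeats. They held a CA run in 52.2%, against 4.15% at 1000 bp, and the motif in 0.386%. D replicate 2 had a peak at 76.2% of them. Outside repeats, 225 sites (2.38%) were at neither parent. For the peaks of single ID libraries outside repeats, the number was 651 (6.53%) in replicate 1 and 1209 (7.31%) in replicate 2.

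Parent sites were also split into classes by an overlap above 66% of both sites, which gave 20562 CTCF-only, 9755 CTCF+CTCFL and 12539 CTCFL-only sites. CLL ID sites were found at 16.6, 69.5 and 32.7% of these classes. In single libraries CTCF+CTCFL sites were bound at 2.48% in D replicate 1, 37.2% in D replicate 2, and 69.7 and 91.7% in ID. ID replicate 2 by itself bound 33.02% of CTCF-only and 57.9% of CTCFL-only sites. The order of the classes was the same in D replicate 2 and in both ID libraries, while D replicate 1 had 1.16, 2.48 and 3.30%. Because CTCF-only sites may still overlap a CTCFL site in part, a class drawn by 1 bp had 4.83% bound in place of 16.6%. CLC ID bound 28.9, 87.5 and 48.0% of the classes.

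**Figure D2:**
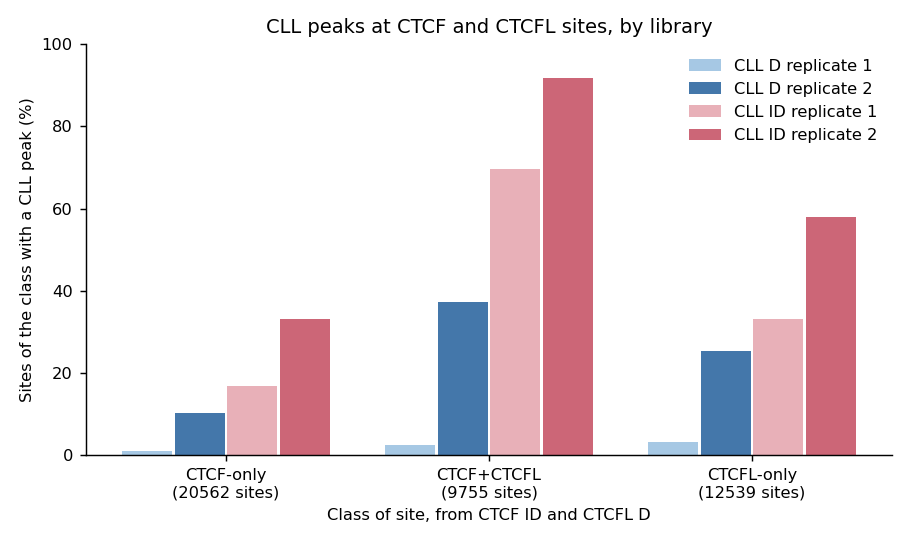
Share (%, y axis) of CTCF-only, CTCF+CTCFL and CTCFL-only sites (x axis) with a peak in each of the 4 CLL libraries, 1 bar per library. CTCF+CTCFL sites stand at 2.48 and 37.2% in D and at 69.7 and 91.7% in ID.

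Strong CTCF sites were the ones CLL occupied most often within the shared class. CTCF+CTCFL sites ordered by the −log10 q of CTCF ID and split into 4 equal groups were bound in CLL ID at 41.5, 61.5, 82.9 and 92.3%, from weakest to strongest. In D replicate 2 the weakest group had 25.7% and the strongest 50.2%. The peaks of ID replicate 2 alone gave 77.7, 92.7, 97.6 and 98.97%, a much flatter rise. CTCF-only sites had 13.6, 9.82, 14.3 and 28.5% bound, so the strongest group was the highest there too, and ID replicate 2 alone had 23.8, 22.4, 32.8 and 53.1%. D replicate 2 had 12.6, 6.85, 8.33 and 13.3% at CTCF-only sites, so its weakest and strongest groups were close.

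The strength of CLL binding itself separated motif sites from repeat sites. CLL ID sites were split into 4 equal groups by the −log10 q of the weaker replicate. From weakest to strongest, 23.7, 36.4, 64.2 and 85.0% had the motif and 66.9, 55.9, 27.99 and 7.37% lay in repeats. In the strongest group 97.6% were at CTCF ID sites, 99.8% at CTCFL D sites and 99.9% at CLC ID sites, against 32.3, 36.5 and 37.0% in the weakest. A D site lay at 1.74% of the strongest group, but D replicate 2 alone had a peak at 83.3% of it.

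**Figure D3:**
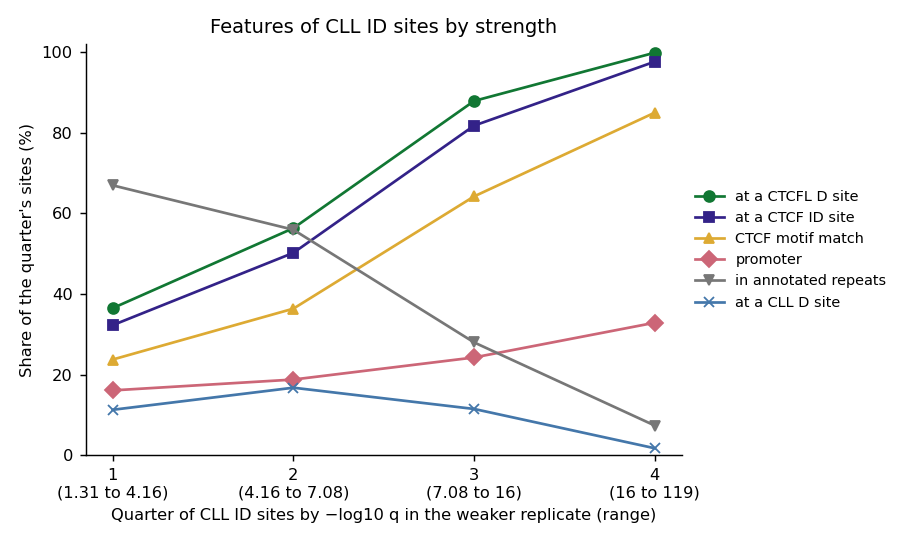
Shares (%, y axis) of CLL ID sites with a motif, in repeats, at promoters and at CTCFL D, CTCF ID and CLL D sites, as lines over 4 equal groups of sites from weakest to strongest by −log10 q (x axis). Motif share goes from 23.7 to 85.0% and repeat share from 66.9 to 7.37%.

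At the same sites, CLL peaks outside repeats were stronger in ID than in D replicate 2, and those in repeats differed little. For 5134 sites outside repeats with a peak in D replicate 2 and in both ID libraries, the median −log10 q was 8.91 in D replicate 2, 19.8 in ID replicate 1 and 46.9 in ID replicate 2. The median fold enrichment was 5.84, 7.37 and 10. The −log10 q was higher than in D replicate 2 at 82.3% of sites in ID replicate 1 and at 97.7% in ID replicate 2. ID replicate 2 itself exceeded ID replicate 1 at 97.6% of 9448 sites, so the gap between the ID replicates was of the same kind. In 1501 repeat sites with a peak in all 4 CLL libraries, the median −log10 q was 3.99 and 7.39 in D and 7.02 and 7.08 in ID. D replicate 1 was the low library there by −log10 q and the other 3 were close. By median fold enrichment both D libraries (5.26 and 5.34) were above both ID libraries (4.87 and 4.76).

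CLL ID sites outside repeats that D replicate 2 lacked were weaker than those it had. The 5134 with a D replicate 2 peak had a median weaker −log10 q of 19.8, lay at promoters in 33.5% and overlapped a CLC D site in 64.7%. The 4314 without one had a median of 6.92, lay at promoters in 25.7% and overlapped a CLC D site in 12.1%. Sites that CLL occupied in the presence of CTCF were thus often occupied by CLC too in that condition. D replicate 1 had a peak at 122 of the 9448 sites.

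RAD21, a cohesin subunit, has no ChIP peak list in the CLL line. RAD21 regions of the CTCF D line found in both of its replicates overlapped 10.3% of CLL ID sites, but the share was 54.5% for replicate 1 alone and 10.7% for replicate 2 alone. The value therefore depends on the RAD21 replicate used. At CLL ID sites of neither parent, 94.2% of them in repeats, replicate 1 alone gave 53.7% and replicate 2 alone 1.41%. The share from replicate 1 was thus not particular to sites of CTCF or CTCFL.

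Promoters held 3596 CLL ID sites (23.0%), and of all sites 37.8% lay in introns and 36.1% in intergenic DNA away from promoters. With a promoter window of 1 kb the share was 12.6%. CLL peaks were at promoters in 12.3 and 19.9% in D and 21.1 and 22.8% in ID. The mean was 16.1 ± 5.35% in D and 21.9 ± 1.20% in ID (SD, n = 2 each), a difference of 5.84 percentage points with an exact two-sided p of 0.33, the smallest possible. The groups did not overlap, yet the difference was 2.06 points within lane 7. Outside repeats the shares were 22.3 and 32.1% in D and 29.2 and 29.2% in ID, a difference of 2.00 points (exact p 1) in which D replicate 2 was the highest. With repeat peaks set aside, the D and ID promoter shares of CLL thus overlapped.

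Among CLL ID sites outside repeats, the 2829 at promoters were at CTCFL D sites in 97% and at CTCF ID sites in 84.3%, and the 6619 elsewhere in 93.0 and 90.6%. D replicate 2 had a peak at 60.8% of the promoter sites and at 51.6% of the others. By these shares, promoter sites of CLL were more often at CTCFL sites, and less often at CTCF sites, than its other sites. The differences were not tested.

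CLL lay between LLC and CLC in promoter share when all peaks were counted. In ID the mean was 21.9 ± 1.20% for CLL, 27.5 ± 1.08% for CLC, 15.6 ± 1.19% for LLC and 30.6 ± 1.01% for CTCFL (SD, n = 2 each). CLL minus the other line was −5.55 points for CLC, 6.32 for LLC and −8.71 for CTCFL (exact two-sided p 0.33 for each, adjusted 0.33 over 3 pairs). With D and ID together and labels permuted within condition, the exact p was 0.056 against CLC, 0.11 against LLC and 0.056 against CTCFL (adjusted 0.083, 0.11 and 0.083), and 0.056 is the smallest this design can give. With the same number of top-ranked peaks from every ID library, the difference was −0.916 points against CLC, with overlapping groups (exact p 1), 11.2 points against LLC and −4.97 points against CTCFL. Against the 48 h mock libraries of CTCFL ID, with promoter shares of 18.8 and 21.5%, CLL was 1.77 points higher, with overlapping groups (exact p 0.67), so the direction depends on the CTCFL libraries used. Outside repeats the difference was −1.42 points against CLC, 0.368 against LLC and −7.04 against CTCFL. Repeat shares in ID were 42.9% for CLL, 20.5% for CLC, 73.4% for LLC and 26.5% for CTCFL, and their part in the promoter differences was not tested beyond this.

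CLL also lay between LLC and CLC in the share of its ID peaks at each of the 3 classes. CLL ID peaks overlapped CTCF-only sites in 21.9%, CTCF+CTCFL sites in 35.1% and CTCFL-only sites in 24.95%. The difference from CLC was −9.41, −5.15 and −7.35 points, and from LLC 11.8, 15.6 and 11.6 points (exact p 0.33 for each). For peaks outside repeats, with the classes as before, the CTCF+CTCFL difference was 8.65 points against CLC and −4.42 points against LLC, with overlapping groups in both (exact p 0.67 and 1). Classes drawn anew from peaks outside repeats gave 9.88 and −4.90 points (exact p 0.33 and 1). The CTCF-only difference from CLC was −3.35 points outside repeats with the classes as before (exact p 0.33), and the CTCFL-only difference was −1.09 points with overlapping groups (exact p 1). From CTCFL, whose D sites define the classes, it was −6.11, 3.32 and −10.9 points, and outside repeats the CTCF-only difference was −1.07 points with the classes as before (exact p 0.67) and 0.439 points with classes drawn anew (exact p 1), while the CTCF+CTCFL difference was 15.7 points with the classes as before and 15.4 with classes drawn anew (exact p 0.33 for each). With a −log10 q of at least 2 in every list, CLL minus CLC was −5.42 points in promoter share and −9.18 points at CTCF-only sites, and CLL minus CTCFL was −8.58 points in promoter share, so the lowest listed q made little difference. Against the 48 h mock libraries of CTCFL ID the class differences were 6.53, 5.35 and 5.66 points (exact p 0.33, 0.67 and 0.33), so those at CTCF-only and CTCFL-only sites changed direction. File names place these mock libraries on lane 2, the CLC libraries and the CTCFL libraries labelled 24 h on lanes 5 and 8, both CLL ID libraries on lane 7 and the LLC ID libraries on lanes 6 and 7. Lane, and time of induction where the sample labels hold, cannot be told apart from the protein between CLL and both CLC and CTCFL, and the part of lane in the difference from LLC was not tested.

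The strongest promoter sites of CLL ID were places that most FLAG libraries shared. Of the 10 protein-coding genes with the highest sites, Rapgef1, which encodes a nucleotide exchange factor for Rap GTPases, came first. Its site at chr2:29619204-29620043 (GRCm38), 117 bp from the start site, had a −log10 q of 80.1 in D replicate 2 and of 109 and 127 in ID, and no peak in D replicate 1. The site near Slc44a4, a choline transporter-like gene, lay in an intron of the neighbouring methyltransferase gene Ehmt2 at chr17:34911845-34912636, with 6.81 and 70.3 in D and 102.1 and 128 in ID. Stra8, needed for entry into meiosis, had an intronic site at chr6:34921678-34922872 with 4.83 and 111 in D and 97.6 and 135 in ID. D replicate 2 was thus between the ID replicates at Stra8 and below both at the other genes just named. Rasl10a, a Ras-like gene, and Tac4, a tachykinin precursor gene, had 64.1 and 66.4 in D replicate 2, 96.9 and 94.7 in ID replicate 1, and 131 and 130 in ID replicate 2, and Tac4 alone of these had a D replicate 1 peak (5.23). The remaining genes were Prss48, Sh3glb1, Dnajc11, Sh3gl1 and Med4, which encodes a Mediator subunit, with 79.8 to 88.3 in ID replicate 1. All 10 sites had a peak in at least 26 of the 28 other FLAG libraries.

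The motif matches of the first 5 of these sites are shown because 9 of the 10 hold one within 50 bp of the summit, as did 52.3% of all CLL ID sites and 4.65% of windows 1000 bp away. Within 25 bp of the summit the share was 32.9%. The motif is a matrix of 14 positions started from the CTCF core on both strands, with the most frequent bases CCACCAGGGGGCGC. Capitals mark the match, with 20 bases of genome (GRCm38) on each side.
Rapgef1, chr2:29619619-29619672, plus strand: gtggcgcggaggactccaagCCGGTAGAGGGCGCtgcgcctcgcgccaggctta
Slc44a4, chr17:34912248-34912301, minus strand: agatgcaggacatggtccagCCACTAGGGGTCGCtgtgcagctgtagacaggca
Stra8, chr6:34922029-34922082, minus strand: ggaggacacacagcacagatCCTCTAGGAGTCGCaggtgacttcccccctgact
Rasl10a, chr11:5060003-5060056, plus strand: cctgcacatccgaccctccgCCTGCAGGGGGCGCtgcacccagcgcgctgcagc
Tac4, chr11:95259263-95259316, plus strand: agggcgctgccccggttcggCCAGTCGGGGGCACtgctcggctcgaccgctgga
Matches lay a median of 16 bp from the summit over 8179 CLL ID sites with one, and 50.7% were on the forward strand.

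Promoter sites of CLL D were ranked by the weaker replicate too, which was D replicate 1 for each of the first 5 protein-coding genes. D replicate 2 was higher at Stra8 (111, the highest of all its peaks) than at any site ranked here. Aida and Brox share a site at chr1:183299014-183299672 with a −log10 q of 65.8 and 80.5 in D and 84.7 and 70.4 in ID, and the predicted genes Gm10800, Gm10801 and Gm10717 supplied the other 3. None of these 4 sites held the motif. The sites of Aida and Brox, Gm10800 and Gm10801 had a peak in every one of the 28 other FLAG libraries, as did 32 of the CLL D sites (1.68%) and 47 of the CLL ID sites (0.301%), and that of Gm10717 in 20.

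Gene groups were read against all annotated genes, of which 7.98% had a CLL ID site at the promoter (6.47% outside repeats), 6.33% a D replicate 2 peak and 0.514% a CLL D site. For protein-coding genes the shares were 11.7% (10.1% outside repeats), 9.02% and 0.556%, and 18.3% had a CTCF ID, 29.8% a CTCFL D and 16.9% a CLC ID site. Peaks of ID replicate 2 alone gave 13.1% of all genes, and a window of 1 kb gave 4.17%. Of 50 germline and meiosis genes 8 had a CLL ID site (16.0%), 13 a CTCFL D site, 8 a CTCF ID site and 9 a CLC ID site. The same number, 8, had a D replicate 2 peak. Several of these genes were picked by the study from its own data, so this count is not independent evidence. Sycp2, part of the synaptonemal complex, had a −log10 q of 30.7 in D replicate 2 and of 71.3 and 90.7 in ID. Tex19.1, a germ cell gene, had 48.5 in D replicate 2 and 41.7 and 71.4 in ID, so that D replicate 2 lay between the ID replicates.

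Named CLL sites at cohesin and replication genes lay at CTCF ID sites, apart from that of Rpa2, where CTCF ID had a peak in replicate 1 alone. Of all CLL ID sites 65.5% lay at CTCF ID sites, and 88.7% of those outside repeats, so this is not particular to these genes. Of 16 cohesin subunits and regulators 4 had a CLL ID site (25%), 4 a D replicate 2 peak, 8 a CTCF ID site and 8 a CTCFL D site. At Pds5b, a cohesin regulator, the −log10 q was 17.6 in D replicate 2 and 54.3 and 92.5 in ID, and at the cohesin subunit gene Stag1 it was 19.2, 27.9 and 55.6. Smc3, which encodes a core cohesin subunit, had no D peak and 5.51 and 26.5 in ID. Of 35 DNA replication genes 6 had a CLL ID site (17.1%) and 5 a D replicate 2 peak. Mcm5, a subunit of the replicative helicase, had 5.78 in D replicate 2 and 31.8 and 54.9 in ID. Gins4, of the GINS complex, had 10.13 in D replicate 2 and 30.6 and 61.1 in ID, and Rfc2, of the clamp loader, had 9.69, 22.9 and 60.4, while Rpa2 had 4.98 in D replicate 2 and 7.99 and 6.51 in ID at a site wholly in repeat.

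Hox, imprinted and pluripotency genes were counted in the same way. Of 39 Hox genes, which pattern the body axis, 5 had a CLL ID site (12.8%), 1 a D replicate 2 peak and 11 a CTCF ID site. Hoxc10 had 9.49 and 33.5 in ID and Hoxa5 9.22 and 22.7, Hoxb3 5.29 and 12.4 and Hoxa10 4.596 and 16.4, with no peak in either D library, as was the case in D replicate 2 for 4314 of the 9448 CLL ID sites outside repeats. Of 37 imprinted genes 7 had a CLL ID site (18.9%) and 6 a D replicate 2 peak. The noncoding RNA gene Meg3 had 20.7 in D replicate 2 and 63.9 and 100 in ID, Inpp5f had 7.05, 26.1 and 68.7 in that order, and the site shared by Peg10 and Sgce had 17.9 and 45.5 in ID and no D peak. Of 24 pluripotency genes 4 had a CLL ID site (16.7%) and 2 a D replicate 2 peak, against 12 with a CTCFL D site. Dnmt3l, which encodes a cofactor of DNA methylation, had 31.4 in D replicate 2 and 29.5 and 64.3 in ID, so that D replicate 2 lay between the ID replicates. Sox2, a core pluripotency factor, had 9.49 in D replicate 2 and 22.4 and 55.8 in ID, while Tbx3 (4.51 and 17.7 in ID) and Tdgf1 (3.67 and 7.53) had no D peak. A CLL D site was present in 1 of the 6 lists, at Stra8. The lists are small, and no test was made of their shares against the background or between lists.

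Loci the study displays for binding were examined next, and since it chose them on these data they are not independent evidence. At the promoter of Ctcfl itself (chr2:173119271-173120074) CLL had a −log10 q of 22.8 in D replicate 2 and 33.9 and 55.5 in ID, with 114 and 130 in CTCFL D, 48.3 and 48.5 in CLC ID, and no CTCF ID peak. CTCF D had 9.70 and 9.89 there. Prss50, a testis serine protease gene, had 65.4 in D replicate 2 and 58.4 and 114 in ID at chr9:110857451-110858353, and CTCF ID had 3.73 in replicate 1 alone. CTCF D had 18.9 and 27.6 at this site. Gal3st1, a sulfotransferase gene needed for sperm formation, had 25.1 in D replicate 2 and 26.2 and 50.6 in ID at chr11:3992151-3992744. At these 3 promoters D replicate 1 had no peak, and D replicate 2 was close to or above ID replicate 1 at Prss50 and Gal3st1. Zbtb45 and Mrps33, where CTCF ID was strong (93.6 and 59.8, and 109 and 114), had 25.01 and 46.8 in D replicate 2 and 32.9 and 69.3 in ID replicate 1. Stat2 had 1 CLL ID site within 3 kb of its body, 13812 bp from its start, with 1 site each of CTCF ID, CTCFL D and CLC ID in the same range and no CLL D peak. The nearest CLL ID site was 27527 bp from the start of Clasp1, a gene with 5 CTCF ID sites within 3 kb of its body, 1 CLC ID site, 1 peak in CLL D replicate 2 and no CLL ID site.

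The Hoxb cluster (chr11:96194316-96368256) held 5 CLL ID sites, against 9 CTCF ID, 5 CTCFL D and 5 CLC ID sites. CLL peaks there numbered 1 and 3 in D and 6 and 7 in ID. The strongest, at chr11:96261463-96262315 in an exon of the noncoding gene Gm53, had 31.4 in D replicate 2 and 29.1 and 68.7 in ID, and was the one CLL ID site of the cluster outside repeats with a D peak. At chr11:96234878-96235368, CTCF ID had 99.5 and 91.3 while CLL had 6.27 and 27.6 in ID and no D peak. The site in the coding exon of Hoxb3 (chr11:96346023-96346458) had 5.29 and 12.4 in ID and no CTCF ID peak, with 28.9 and 13.04 in CTCFL D and 3.25 and 10.6 in CTCF D. Strong CTCF ID peaks at chr11:96240013-96240870 (−log10 q of 114 and 120) and chr11:96302885-96303649 (94.1 and 59.3), chosen after their values were seen, had no CLL peak. The CLL ID site at chr11:96231455-96231770, which overlaps the cluster's single CLL D site, was a repeat with a CA run and had no CTCF ID, CTCFL D or CLC ID peak.

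**Figure D4:**
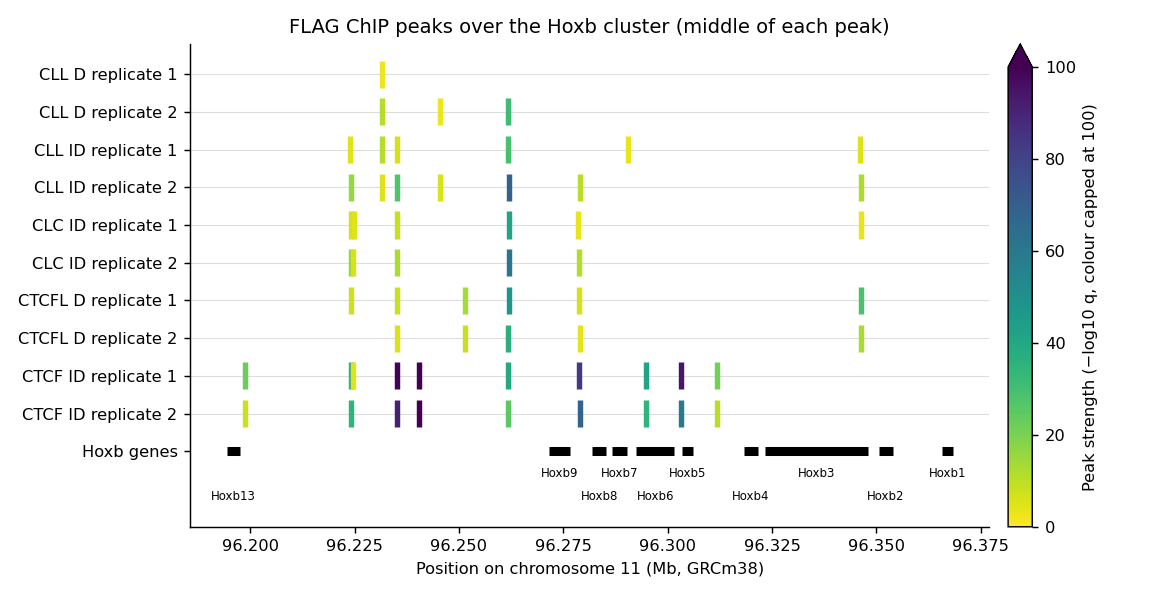
Map of the Hoxb cluster (x axis, position on chromosome 11 in GRCm38) with peaks of CLL D, CLL ID, CLC ID, CTCFL D and CTCF ID libraries drawn as bars at the middle of each peak above the Hoxb genes, coloured by −log10 q. CLL has 1 and 3 peaks in D and 6 and 7 in ID, and CTCF ID has 10 and 9.

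CLL ID sites apart from CTCF and CTCFL were few and were mostly repeats. Of the CLL ID sites 279 (1.78%) had no peak in any CTCF or CTCFL library of D, ID or mock, and 87.5% of these lay in repeats, leaving 35 outside. They held a CA run in 53.05%, against 4.66% at 1000 bp, lay at promoters in 10.4%, and had the motif in 0.358%. CLC ID sites overlapped 1.43% of them and LLC ID sites 16.8%, and D replicate 2 had a peak at 36.9%. Their median weaker −log10 q was 3.36, against 7.08 over all CLL ID sites. Asking for no peak in any of the 28 other FLAG libraries left 43 sites, of which 8 lay outside repeats and 58.1% held a CA run. The count of 279 was 1440 or 1592 for the peaks of a single ID replicate, 70 at a −log10 q of at least 5, and 1300 when the absence of a site, not of a peak, was asked for.

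The highest of these 279 sites were weak beside the promoter sites above. Intronic sites among them lay in Plekhh2 (−log10 q of 7.28 and 6.81 in ID, with stronger CLC D peaks of 11.2 and 13.2) and in Npc1l1, the intestinal cholesterol transporter gene (6.69 and 7.83), and another lay in Iqcf1, 1168 bp from its start site (6.46 and 7.08). Of the first 10 sites 9 were wholly repeat, 6 held a CA run, and 1, at chr13:48785209-48785536, had no peak in any other FLAG library. The sequences at the summits of 4 of the first 5 (61 bases, GRCm38, plus strand) are shown because none holds the motif; this form was chosen after their values were seen. Capitals mark CA or TG repeated at least 3 times.
Plekhh2 intron, chr17:84606558-84606618: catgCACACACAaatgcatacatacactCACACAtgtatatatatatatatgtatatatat
Npc1l1 intron, chr11:6213626-6213686: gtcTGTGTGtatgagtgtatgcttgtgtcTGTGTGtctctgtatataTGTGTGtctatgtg
Iqcf1 intron, chr9:106501171-106501231: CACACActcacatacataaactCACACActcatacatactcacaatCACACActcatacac
Intergenic site, chr2:90636058-90636118: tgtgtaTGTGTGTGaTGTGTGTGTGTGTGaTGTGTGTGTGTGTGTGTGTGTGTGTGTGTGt
All 4 hold CA or TG repeats with breaks, and the Plekhh2 sequence ends in TA repeats. Among neighbouring base pairs in such 61-base windows, CA, AC, TG or GT made up 58.2% on average at the 279 sites, 61.1% at CLL D sites, 55.6% at CLL ID sites in repeats and 26.5% at those outside.

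Sites of CLL D without a CLL ID site numbered 296, and 96.6% of them lay in repeats. The highest, at chr17:29790901-29791228, had 7.57 and 8.74 in D and 3.02 in ID replicate 2, and the next, at chr6:143325471-143325851, had 10.3 and 7.52 in D and 6.66 in ID replicate 1. Of the first 5, all intergenic, 4 had a peak in 1 of the ID libraries. These 4 therefore missed an ID site for want of a peak in the other ID library.

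At CTCF-only sites, the strongest CLL ID site was at chr5:116116192-116117125, intergenic, with 7.31 and 105 in D and 119 and 158 in ID. Rapgef1, Stra8, an intron of Rtkn2 and Prss48 followed. Each of the 5 also had peaks in both CTCFL D libraries, with a −log10 q of 77.2 or more, so the name of the class rests on how far the regions overlap.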

How the data were processed

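FLAG ChIP libraries were made by ChIPmentation and sequenced as single-end reads. Per the study's methods, the authors aligned reads with Bowtie2 to GRCm38 (mm10), kept unique reads, discarded duplicates found by Picard, and ran MACS on each replicate at q 0.05. The processing notes also name Trim Galore 0.4.4, SAMtools 1.3, HTSeq and deepTools. The control library behind the calls is not given in the sources used here. The deposited peak lists give a fold enrichment (a ratio) and a −log10 q for each peak. The lowest deposited −log10 q corresponds to q 0.05 in CLL and LLC and to q 0.01 in CTCF, CTCFL, CLC and LCL. No read counts are held in these lists, so depth is unknown and no counting interval can be given.

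Overlapping peaks of a list were merged on chromosomes 1 to 19 and X, then the replicates of a group, and a site was a merged region overlapped by at least 1 bp in both. Start sites came from GENCODE vM21 basic (53843 genes, 21755 of them protein-coding). The motif matrix was re-estimated in 10 rounds on CTCF+CTCFL sites, with 0.5 added to each base count, and a match scored above the 95th percentile of windows 1000 bp away. Groups of 2 libraries were compared by exact two-sided permutation, and line pairs were adjusted by Benjamini-Hochberg over 3 pairs. Counts and overlaps of sites were given with no test. Alternatives were the q threshold, the overlap, the windows, parent sites of other conditions, top-ranked peaks, each replicate left out and the replicate block. Peaks outside repeats, a common −log10 q of 2, top-ranked ID peaks, CTCFL mock libraries in the line comparison and values within lane 7 were added after seeing the data.

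Named genes and sites were taken from the loci the study displays, the 10 protein-coding promoters with the highest CLL ID sites by the weaker −log10 q and the 5 for CLL D, the 10 highest CLL ID sites without a CTCF or CTCFL peak, the 5 highest CLL D sites without a CLL ID site, the 5 highest at CTCF-only sites, and the 4 highest members of each gene list. Mouse chromosome 18 and protocadherins were left out of the named sites, and 1 of the sites without a CTCF or CTCFL peak is not reported here. The members and lists were chosen with earlier results of these data known. Python 3.11.15, numpy 2.4.6, scipy 1.17.1, pysam 0.24.0, numba 0.67.0 and matplotlib 3.10.9 were used, and the overlap and motif steps were tested on simulated data.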

Additional observations from a re-analysis of the deposited data

Results flagged for a closer look

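The change from D to ID had opposite signs in CLL and in another line for several measures, with every ID library on one side of both D libraries in each line. For none of them was the difference between the lines tested. Peak number moved in opposite directions in CLL and CTCF, with a gap of 27521 peaks between their ID minus D differences, of which 19953 lay outside repeats and 7568 in repeats. Peaks in repeats also parted CLL from CLC, by 5640. The ID minus D promoter share of CLL differed from that of CTCFL by 11.5 percentage points and from that of CTCF by 7.63. The share of peaks at CTCF-only sites parted CLL from LCL by 12.8 points, and by 12.85 outside repeats, and that at CTCF+CTCFL sites by 21.0. At CTCFL-only sites CLL parted from CTCF by 5.33 points. Each of these rests on D means that include CLL D replicate 1. All of the gaps are smaller without it. CLL D replicate 2 alone had 8605 peaks in repeats, against an ID mean of 9667.5. Its promoter share was 19.9%, against an ID mean of 21.9%. At CTCF+CTCFL sites it had 25.1% of its peaks, against an ID mean of 35.1%. At CTCF-only sites outside repeats it had 26.59%, close to the 26.64% of ID replicate 1. Outside repeats, the promoter shares of CLL did not part from those of CTCFL or CTCF by this rule, and CLL D replicate 2 (32.1%) was above the CLL ID mean (29.2%). Nor did the gaps from LCL at CTCF+CTCFL sites and from CTCF at CTCFL-only sites hold outside repeats. There CLL had 33.8 and 50.7% in D and 58.2 and 45.9% in ID at CTCF+CTCFL sites. At CTCFL-only sites it had 22.3 and 38.3% in D and 31.9 and 35.8% in ID.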

How the results depend on the processing

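Of 224 alternative values for 29 results, 132 kept the direction of a difference or stayed near a value, 85 values moved by more than the spread between replicates or, for counts, by over 1.5 times, and 7 differences changed direction. No difference between libraries could reach a p under 0.05 in this design, so differences were judged by direction alone, and several changed in size. In promoter share, CLL minus LLC went from 6.32 to 0.383 points when repeat peaks were dropped before merging, and CLL minus CLC from −5.55 to −0.916 among top-ranked ID peaks. At CTCF-only sites, CLL minus CLC went from −9.41 to −3.35 outside repeats and to −0.770 when the classes were also drawn anew. At CTCFL-only sites, it went from −7.35 to −1.09 outside repeats and to −0.954 when the classes were also drawn anew. Among top-ranked ID peaks, with classes from top-ranked CTCF ID peaks and all CTCFL D peaks, it was −3.20. Groups overlapped in each of these settings. With the classes as before, the top-ranked peaks were at CTCFL-only sites in 27.7 and 31.7% for CLL and 30.2 and 30.01% for CLC. Read depth is unknown, and the ID replicates differed in number of peaks. The cause of the shifts was not tested.

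At a −log10 q of at least 5, D sites numbered 429 and ID sites 10218, and 3.10% of ID sites had a D site, 80.4% a CTCFL D, 78.2% a CTCF ID and 82.3% a CLC ID site, 14.3% neither parent and 13.3% RAD21, 26.5% were at promoters and 70 had no CTCF or CTCFL peak.

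Leaving out each CLL replicate in turn gave 1908 to 14593 D sites, 15633 to 27051 ID sites and 279 to 1592 without a CTCF or CTCFL peak. The share of ID sites was 6.45 to 61.4% at D, 59.2 to 70.1% at CTCFL D, 55.2 to 65.5% at CTCF ID, 24.9 to 36.3% at neither, 59.4 to 70.5% at CLC ID, 21.1 to 23.0% at promoters, 40.8 to 52.3% with the motif and 8.05 to 10.3% with RAD21. CTCF-only, CTCF+CTCFL and CTCFL-only sites were bound at 16.6 to 33.02, 69.5 to 91.7 and 32.7 to 57.9%, and 7.98 to 13.1% of genes had a site. The ID minus D difference was 8331.5 to 20735.5 peaks and 2.06 to 9.62 points of promoter share.

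An overlap of at least 50% gave 53.7% at CTCFL D, 57.8% at CTCF ID, 32.2% at neither and 43.7% at CLC ID, and one of 66% gave 28.5, 40.2, 48.7 and 19.3%. CTCFL sites of the matching condition gave 80.6%, with 18.2% at neither parent, and 48 h mock sites gave 36.9% for CTCFL and 68.4% for CTCF.

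With the same number of top-ranked peaks from every library, ID sites numbered 1794. Of these, 2.06% were at D, 58.2% at CTCFL D, 32.7% at CTCF ID and 73.2% at CLC ID sites. Promoters held 36.7% of them, and 88.0% had the motif. The parent classes were here also drawn anew from top-ranked peaks, and are not the classes of all peaks used above. CLL was found at 89.0% of this redrawn shared class and at 55.2% of the redrawn CTCFL-only class.

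Classes drawn by 1 bp gave 4.83% of CTCF-only and 18.1% of CTCFL-only sites bound, and an overlap of at least 50% gave 19.95% of CTCFL-only sites. Sites without a CTCF or CTCFL peak numbered 183 with RNase libraries included and 1300 by sites. The promoter share was 12.6% within 1 kb and 15.7% by protein-coding starts, and 4.17% of genes had a site within 1 kb. The motif share was 32.9% within 25 bp, 58.6% within 100 bp and 43.9% at the 99th percentile. RAD21 replicate 1 alone gave 54.5%.

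Other settings were chosen after seeing the data. A −log10 q of at least 2 in every list gave 71.4% at CLC ID. Dropping repeat peaks from every list before sites were formed, whereas the report takes the finished sites outside repeats, gave 98 D and 9159 ID sites, with 0.917% at D, 92.2% at CTCFL D, 87.7% at CTCF ID, 2.89% at neither, 93.8% at CLC ID, 30.4% at promoters, 76.6% with the motif, 15.3% with RAD21 and 33 without a CTCF or CTCFL peak. The same number of top-ranked peaks from every ID library gave 7195 ID sites, with 1.64, 98.2, 57.5, 1.10 and 89.7% in that order of sites, 30.01% at promoters, 81.5% with the motif, 16.0% with RAD21 and 1 without such a peak. In this setting the lists of CTCF ID and CLC ID were cut, and those of CLL D and CTCFL D were not. The shares at CTCFL D and CTCF ID sites are therefore not comparable with each other here.

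With repeats left out of every list, the parents' included, direction changed for CLL minus CTCFL at CTCF-only sites (0.439 points; −1.07 with classes from all peaks) and for CLL minus CLC (9.88) and CLL minus LLC (−4.90) at CTCF+CTCFL sites. It also changed for CLL minus CTCFL at CTCF+CTCFL sites among top-ranked ID peaks (−3.05), with classes from top-ranked CTCF ID peaks and all CTCFL D peaks. With the 48 h mock libraries in place of CTCFL ID, it changed for CLL minus CTCFL in promoter share (1.77) and at CTCF-only (6.53) and CTCFL-only (5.66) sites.

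The replicate numbers were also used as a replicate block. The paired differences stayed 14533.5 peaks and 5.84 points of promoter share, with an exact p of 0.5, the smallest 2 pairs can give. Over 1615 sites with peaks in all 4 libraries, deviations of same-numbered libraries correlated at 0.041, so the libraries share only a number.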
